A study of Mus musculus with 6 samples.

Results

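Genes of sterol and fatty acid synthesis were examined in bulk RNA-seq of mouse primary myoblasts, the proliferating cells that muscle stem cells give rise to in culture. The set held 33 genes, chosen by name from the 54532 genes of the count table, and it was divided by role into 7 enzymes of early sterol synthesis, 11 of late sterol synthesis, 6 genes of sterol control and transport, 6 of fatty acid synthesis and 3 of polyunsaturated fatty acid synthesis. For the comparison, 3 wild-type (WT) libraries, WT 1 to 3, were set against 3 libraries labelled eIF5A knockout (KO), KO 1 to 3, all taken on day 2 of myoblast proliferation. In the study the knockout is a floxed eIF5A allele recombined by tamoxifen-induced CreERT2 from the Pax7 locus. Its ribosome and polysome profiling used primary myoblasts of 3-week-old knockout mice and WT littermates, while the age of the mice behind these RNA-seq libraries was not stated. For other experiments of the study the controls are described in places as Pax7-CreERT2/+ mice and elsewhere as Pax7+/+;eIF5A f/f mice, and which genotype the WT libraries had was not given for this one. Both groups were grown with 10% fetal bovine serum and with FGF. Since the Cre is active only in Pax7-expressing cells, cells of other types in the culture would keep the floxed allele.

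Animal cells build cholesterol from acetyl-CoA through the mevalonate pathway, which leads to squalene, and then through the enzymes that close and trim the sterol rings. The transcription factors SREBP-2 (Srebf2) and SREBP-1 (Srebf1) drive most of these genes and those of fatty acid synthesis. SCAP carries the SREBPs from the endoplasmic reticulum to the Golgi, where they are cut to their active form, and INSIG proteins hold them back when sterols are plentiful, so that serum lipids and cell growth both bear on the pathway. Dividing myoblasts need sterols and fatty acids for new membrane.

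The promoters of 4 genes on which the results below turn are shown: Hmgcs1, the member with an exact match to the SREBP element core, Mvk and Msmo1, whose levels rose and fell between libraries with other sterol enzymes, and Elovl6, whose groups did not overlap. Each is the 250 bases before the RefSeq transcription start of GRCm38.p6, 5′ to 3′ on the gene's strand, at chr13:119690101-119690350 (plus strand), chr5:114444019-114444268 (plus), chr8:64733579-64733828 (minus) and chr3:129532136-129532385 (plus). Capitals mark the SREBP element core TCACNCCAC and the CCAAT box, the letters bound by NF-Y, which reads as ATTGG when it lies on the other strand.
Hmgcs1: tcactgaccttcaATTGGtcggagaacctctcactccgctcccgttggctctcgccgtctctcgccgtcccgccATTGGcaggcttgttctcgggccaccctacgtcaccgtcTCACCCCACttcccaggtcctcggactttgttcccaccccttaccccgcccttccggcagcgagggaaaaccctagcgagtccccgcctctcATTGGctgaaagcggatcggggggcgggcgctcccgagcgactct
Mvk: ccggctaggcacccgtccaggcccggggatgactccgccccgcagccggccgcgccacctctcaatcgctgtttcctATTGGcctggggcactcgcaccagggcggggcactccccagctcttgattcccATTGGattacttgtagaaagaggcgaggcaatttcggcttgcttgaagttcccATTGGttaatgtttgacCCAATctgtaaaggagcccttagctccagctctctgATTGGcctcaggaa
Msmo1: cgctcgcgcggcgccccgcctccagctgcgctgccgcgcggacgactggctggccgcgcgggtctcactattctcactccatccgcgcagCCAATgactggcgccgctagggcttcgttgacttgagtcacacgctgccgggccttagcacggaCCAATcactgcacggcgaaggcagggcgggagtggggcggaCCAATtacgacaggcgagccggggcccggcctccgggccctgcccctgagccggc
Elovl6: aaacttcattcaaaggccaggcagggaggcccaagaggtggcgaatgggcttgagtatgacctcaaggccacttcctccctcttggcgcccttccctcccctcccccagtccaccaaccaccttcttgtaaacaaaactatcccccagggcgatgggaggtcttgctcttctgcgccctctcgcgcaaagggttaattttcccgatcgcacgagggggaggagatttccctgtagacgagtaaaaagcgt
Hmgcs1 held the core as TCACCCCAC, with its first base at position -137 from the start, and 3 CCAAT boxes. Mvk held 5 CCAAT boxes and Msmo1 held 3, whereas the Elovl6 stretch held neither motif. RefSeq promoter windows of 300 bases, 250 before to 50 after the start, were available for 26 of the 33 members and were searched on both strands. A CCAAT box lay in 21 of the 26, against 41.1% of 27025 genes, and a GC box (GGGCGG) also in 21, against 38.2%. The E-box CACGTG lay in 6 of the 26, against 8.09% of genes, and the SREBP core in 1, against 1.44%. No matches to different motifs overlapped in these 26 members, and a gene with several windows counted once if any held the motif. These letter matches are descriptions of the windows and were not tested for binding.

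The libraries held 16281216 to 17734551 counts each, of which the 33 members took 0.192% to 0.236%. The mRNA of the deleted gene itself did not set the labels apart. Eif5a read 1603, 986 and 1238 CPM (counts relative to library size, scaled by edgeR's TMM factors) in WT 1, 2 and 3, and 1364, 1459 and 1059 CPM in KO 1, 2 and 3. Its log2 fold change was 0.02 (95% interval -0.51 to 0.55, adjusted p = 0.993 by edgeR's quasi-likelihood test with Benjamini-Hochberg adjustment). The study's drawing of the floxed allele has loxP sites around the first coding exon only, so a count over the whole gene may not show the deletion, and the groups are called by their labels. In muscle stem cells of these mice the study checked the knockout by RT-qPCR of eIF5A mRNA and by immunostaining of the protein, and reports it as established. Of 10 satellite cell and myoblast markers none was at 0 in all libraries, and Myod1 ran from 264 to 550 CPM in WT and from 196 to 349 CPM in the libraries labelled KO, Pax7 from 12.9 to 51.7 and from 8.29 to 13.0 CPM. In these 10 the log2 fold change was below 0 in 8 and above 0 in 2, with a median of -0.33, and 2 were lower at an unadjusted p under 0.05 and 0 after adjustment. WT 1 stood apart with 5.75% of its counts from mitochondrial transcripts against 2.11% to 3.50% in the others. Nothing in the labels says that the replicates came from separate mice or cultures, so p-values measure the spread between these samples, which may be technical. In bulk samples fewer cells of a type and less RNA per cell cannot be told apart.

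By the deposited gene lengths the desaturases Scd1, Scd2 and Fads1 were the most abundant members, and the sterol enzymes all lay below them. Levels between genes are compared in FPKM, the deposited values per kilobase of gene length. Scd1 and Scd2, the stearoyl-CoA desaturases that make monounsaturated fatty acids, averaged 47.5 and 42.5 FPKM over the 6 libraries. Fads1, the delta-5 desaturase, averaged 34.5 FPKM, and Acly, which makes cytosolic acetyl-CoA from citrate, 33.6 FPKM. Elovl5 averaged 28.5 FPKM and Srebf2 27.9 FPKM, and no other member was above 16.1 FPKM. Among the sterol enzymes the highest were Cyp51, the lanosterol demethylase, and Ebp, the sterol isomerase, both at 15.9 FPKM. Acat2, the cytosolic acetoacetyl-CoA thiolase, was the highest of the early enzymes at 14.1 FPKM. Lss, which closes the sterol ring, was at 2.01 FPKM, and the sterol reductase Tm7sf2 at 0.399 FPKM. Neighbours in this order often did not differ beyond their spread, as Scd1 ranged from 33.2 to 80.4 FPKM and Scd2 from 38.5 to 45.7 FPKM.

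**Figure D1:**
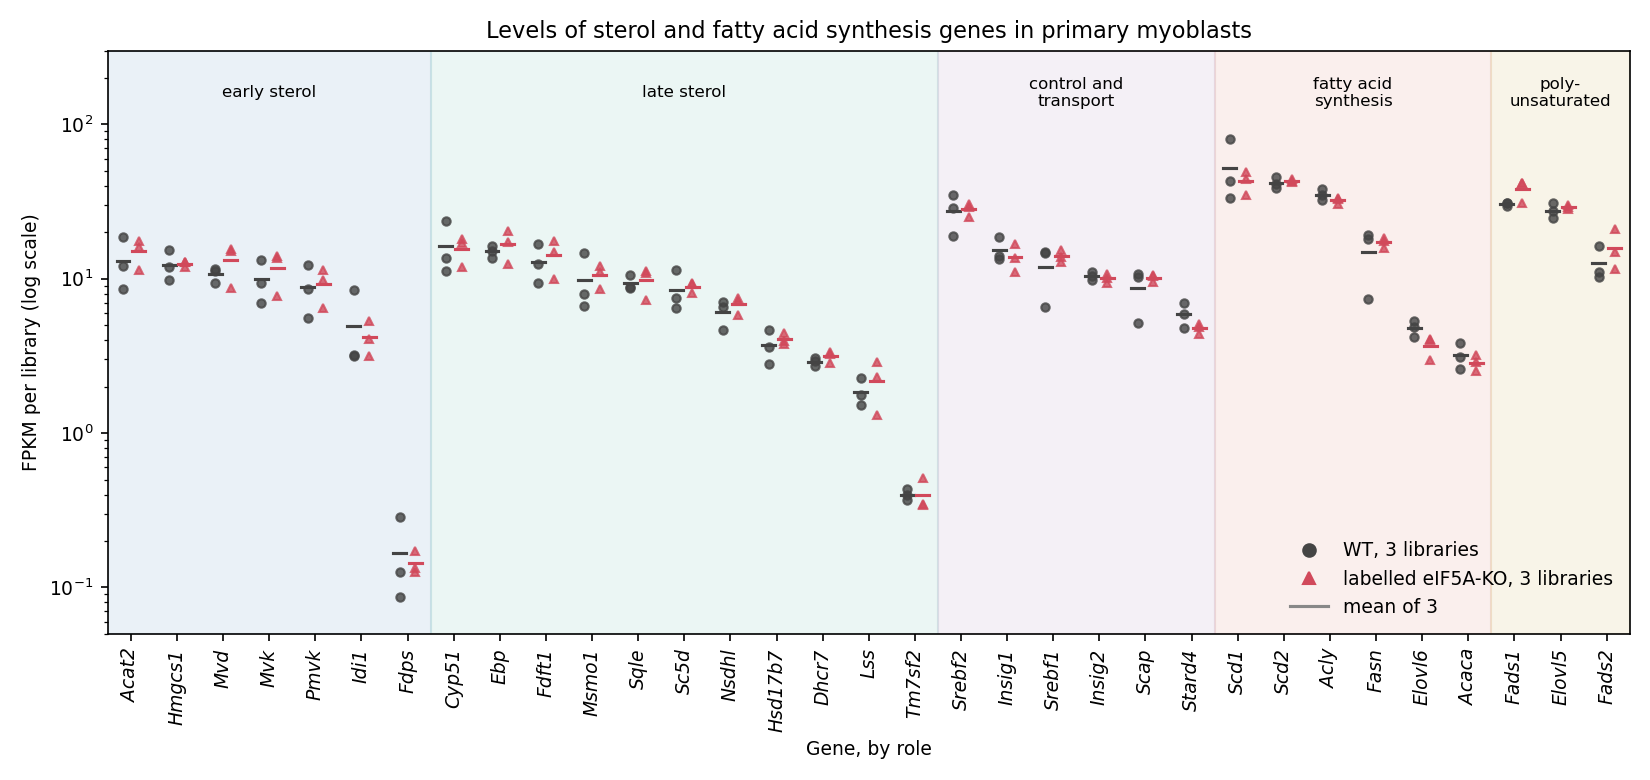
FPKM of each member in each library on a log axis, ordered by role and mean level (grey circles, WT; red triangles, labelled KO; bars, means of 3 libraries). By the deposited gene lengths, on which the place of Fads1 depends, the desaturases Scd1, Scd2 and Fads1 lay highest and Fdps and Tm7sf2 lowest. WT and labelled-KO points overlapped for every member except Elovl6 and, by a gap of 31.1 to 31.2 FPKM, Fads1.

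Some of these levels were uncertain. Fdps, the farnesyl diphosphate synthase, had only 7 to 19 counts per library, fell below edgeR's filter and was not tested, while its processed pseudogene Gm3571, 98.9% identical over 1062 bases, had 48 to 106 counts. Reads of the gene could have been counted at such copies, so the 0.155 FPKM of Fdps is not a reliable level. Exons of Fdft1, squalene synthase, share 774 bases with Ctsb on the opposite strand, and strand use in the counting was not stated. Ctsb had 21786 to 34318 counts per library. The deposited gene lengths of Fads2 and Fads1 were 1508 and 3456 bases, against 3295 and 4812 bases of merged exons in GENCODE M21. Their 14.2 and 34.5 FPKM, and the place of Fads1 above Acly, Elovl5 and Srebf2, therefore depend on the annotation. Their comparisons between libraries do not. Tm7sf2, with 33 to 47 counts per library, shares an exon stretch of 532 bases with Vps51 on the same strand, which had at most 52 counts. Its deposited length was 5593 bases against 4403 bases of merged exons, so its low level is uncertain too. Scd1 and Scd2 share 623 bases at 95.5% identity. Acat2, with 415 to 748 counts per library, shares 445 bases at 98.7% identity with Tcp1, which had 5216 to 6901 counts, and 1477 bases at 97.7% with Acat3, which had 10 to 25. Acaca shares 6118 bases at 99.2% identity with the processed pseudogene Gm5182, which had 57 to 193 counts.

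No member passed the test between the groups. Of the 32 members tested, 0 were higher and 0 lower at an adjusted p under 0.05, where 0.00681% of the 14679 tested genes were higher and 0.0136% lower (edgeR's quasi-likelihood test). At an unadjusted p under 0.05 the members again gave 0 higher and 0 lower, against 2.74% and 4.02% of all tested genes, and DESeq2 and limma-voom gave 0 as well. None reached an unadjusted p under 0.05 with a fold over 2 in either direction, a rule that 0.531% of tested genes met as higher and 1.32% as lower. The log2 fold change, labelled KO over WT, was above 0 in 22 members and below 0 in 10, with a median of 0.07 against -0.01 over all tested genes. That balance rested on single libraries, since the median was 0.18 without KO 3, 0.17 without WT 1 and -0.01 without WT 2 for the same 32 genes.

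The precision sets what could have been seen. The standard errors of the members ran from 0.16 to 0.39 on the log2 scale, with a median of 0.23. For 31 of the 32 the 95% interval lay within a 2-fold change in either direction. The exception was Idi1, the isopentenyl diphosphate isomerase, with an interval of -1.12 to 0.64. Changes smaller than these intervals were not detectable with 3 libraries a group.

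**Figure D2:**
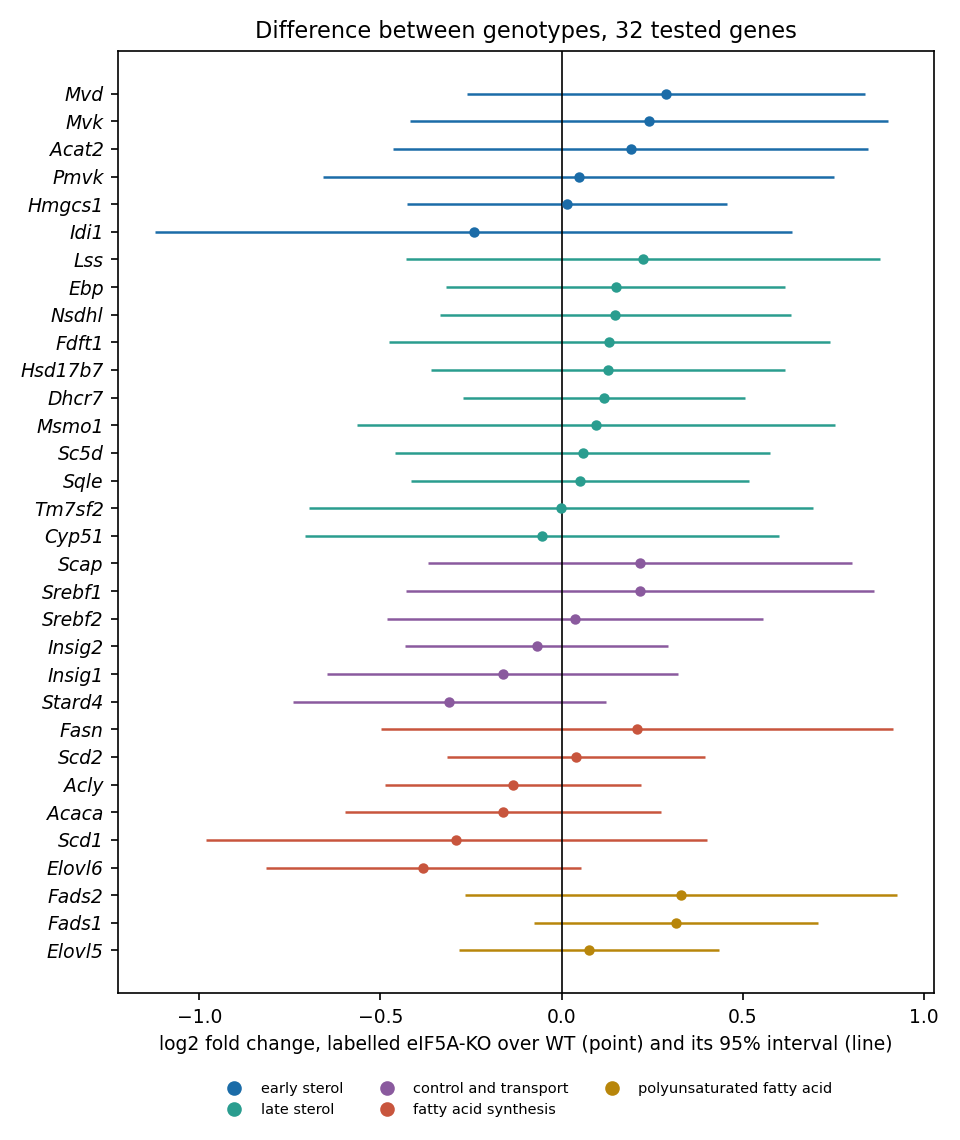
Log2 fold change of each tested member, labelled KO over WT, with its 95% interval from the edgeR fit, coloured by role. All 32 intervals cross 0, and the point farthest from 0 is Elovl6 at -0.38.

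The sterol enzymes varied widely between libraries of the same label, and their direction between the labels turned on single libraries. Idi1 differed 2.71-fold among the WT libraries and Lss 2.23-fold among those labelled KO, while the log2 fold changes of the 17 tested enzymes lay between -0.24 and 0.29, with 14 above 0. Without WT 1 all 17 were above 0, at 0.07 to 0.55, whereas without KO 1 only 8 were and without WT 2 only 6. The early enzymes gave a median log2 fold change of 0.12, which for the same 6 genes was 0.39 without WT 1 and -0.08 without WT 2. The 11 late enzymes also had a median of 0.12, which became 0.34 and -0.02 in those fits. Acat2 read 48.3, 22.0 and 30.9 CPM in the WT libraries and 45.4, 41.0 and 29.1 CPM in those labelled KO. WT 1 was high and WT 2 low, KO 3 fell among the lower values, and the groups overlapped (fold 1.14, 95% interval 0.724 to 1.80). Cyp51 read 106.3, 50.2 and 60.5 CPM in WT and 80.5, 76.0 and 52.4 CPM in the libraries labelled KO. Again WT 1, KO 1 and KO 2 were the 3 high libraries, and the fold was 0.963 (0.612 to 1.52). Msmo1, the sterol C4-methyl oxidase, read 92.1, 41.6 and 49.4 CPM in WT and 74.7, 68.0 and 52.8 CPM in the libraries labelled KO. Its 3 highest libraries came in the same order as for Cyp51. Mvk, the mevalonate kinase, read 36.1, 18.9 and 25.4 CPM against 37.7, 36.5 and 20.8 CPM, with the same 3 libraries on top. Hmgcs1, which makes HMG-CoA and holds the SREBP core shown above, read 71.3, 45.5 and 55.2 CPM against 59.6, 59.2 and 54.9 CPM, a log2 fold change of 0.01 (-0.43 to 0.46). Of the other early enzymes, the phosphomevalonate kinase Pmvk ran from 9.71 to 21.5 CPM and Mvd, which makes isopentenyl diphosphate, from 16.2 to 29.2 CPM. Idi1, which isomerises that product, ran from 11.1 to 30.2 CPM and was highest in WT 1. Squalene is made by Fdft1 (40.2 to 75.4 CPM), oxidised by Sqle (40.6 to 62.6 CPM) and cyclised by Lss (14.1 to 31.4 CPM). Of the enzymes that then trim the sterol, Nsdhl ran from 13.4 to 21.5 CPM, Hsd17b7 from 14.5 to 24.2 CPM, Ebp from 29.1 to 47.4 CPM and the desaturase Sc5d from 31.6 to 56.7 CPM. The ketoreductase Hsd17b7 and the C4-decarboxylating dehydrogenase Nsdhl had log2 fold changes of 0.13 and 0.15. The steadiest was Dhcr7, the reductase of the last steps, at 15.9 to 19.8 CPM, and Tm7sf2 ran from 1.93 to 2.88 CPM, so that all of these overlapped between the labels.

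The same 3 libraries led most of the sterol enzymes. WT 1, KO 1 and KO 2 were the top 3 libraries for 13 of the 17 tested sterol enzymes, 5 of 6 early and 8 of 11 late, whereas this held for 12.9% of all tested genes. This grouping of libraries was noticed in the values and carries no test. Among the other members 0 of 6 control genes, 0 of 6 fatty acid synthesis genes and 2 of 3 polyunsaturated genes had it. Of the further pathway genes described at the end it was found in 0 of 3 other sterol enzymes, 0 of 10 genes of SREBP processing, 1 of 7 of sterol efflux, 1 of 8 of sterol esters and export, 4 of 10 of fatty acid oxidation and 7 of 21 of fatty acid synthesis, and the difference between roles was not tested. Summed over the 18 sterol enzymes, the level was 742, 441 and 515 CPM in WT 1, 2 and 3, and 688, 642 and 472 CPM in KO 1, 2 and 3. The highest and lowest sums were both WT libraries. The 4 sterol enzymes that departed from the pattern were Idi1, Tm7sf2, Ebp and Dhcr7.

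Transcript length moved with the same libraries, whereas GC content set WT 1 apart from KO 1 and KO 2. Over 14667 tested genes with a known transcript length, the deviation of a gene from its mean over the 6 libraries had a Spearman rho with length of -0.37 in WT 1, -0.25 in KO 1 and -0.18 in KO 2, against 0.52 in WT 2, 0.00 in WT 3 and 0.31 in KO 3, across genes that are not independent replicates. With GC content the rho was -0.30 in WT 1, 0.46 in KO 1 and 0.30 in KO 2. It was 0.02 in WT 2, -0.06 in WT 3 and -0.20 in KO 3. The median log2 deviation of the sterol enzymes was 0.32 in WT 1, -0.41 in WT 2, -0.15 in WT 3, 0.30 in KO 1, 0.16 in KO 2 and -0.26 in KO 3. With each library's trend on length and GC content taken out, an alternative chosen after the data had been seen, these medians were 0.37, -0.32, -0.14, 0.29, 0.19 and -0.22. The medians of the sterol enzymes ran from -0.41 to 0.32 as scaled and from -0.32 to 0.37 without that trend. What part length and GC content had in their spread between libraries was not tested. In that fit 0 members were higher and 0 lower at an unadjusted p under 0.05, against 3.87% and 5.48% of all tested genes.

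**Figure D3:**
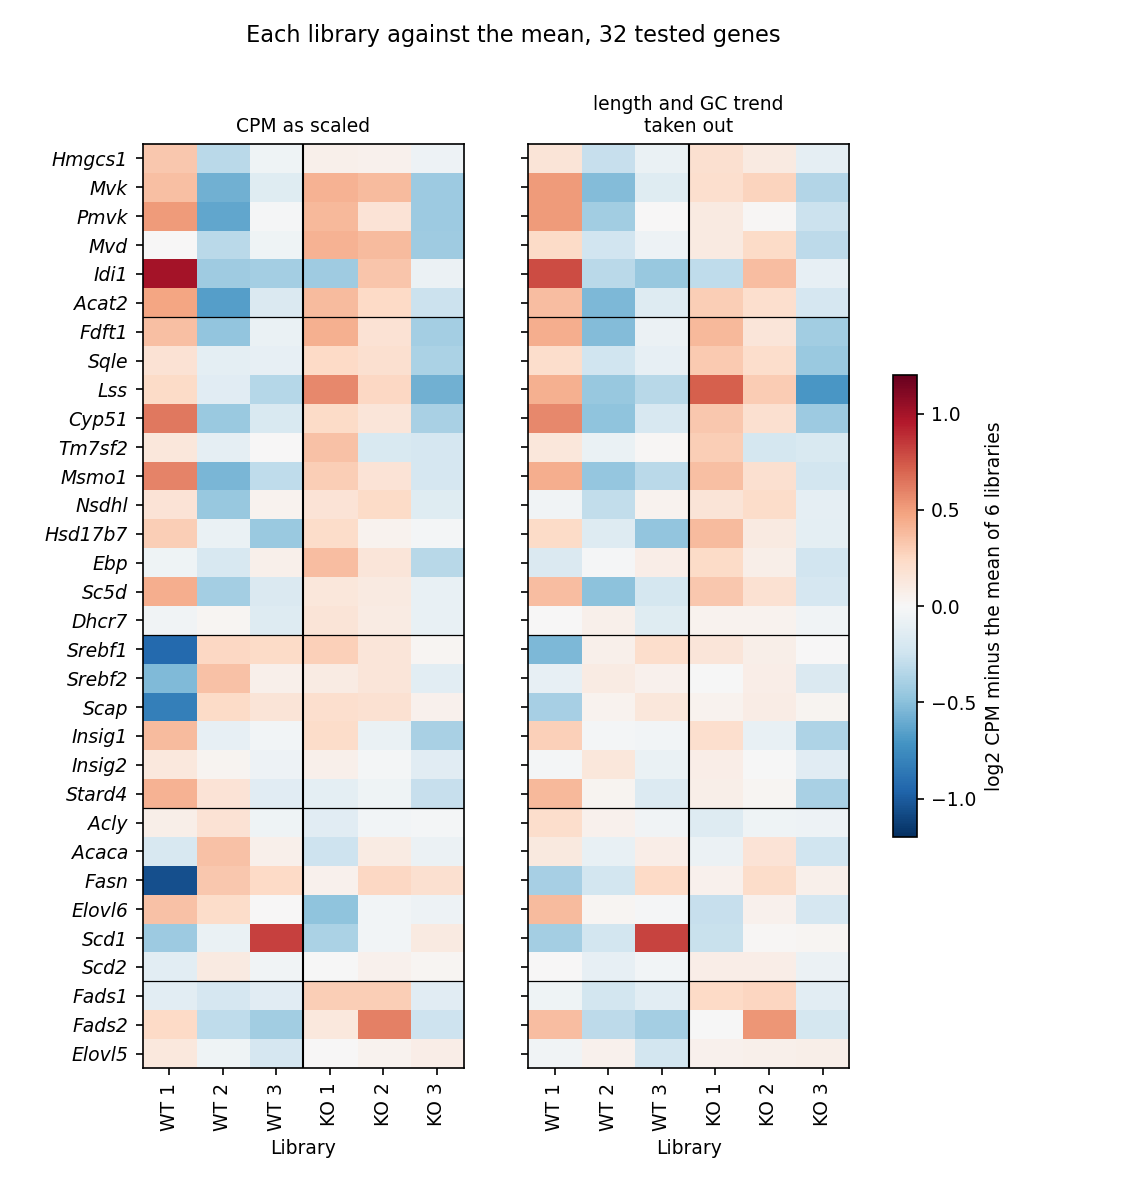
Log2 CPM of the 32 tested members in each library minus the mean of the 6 libraries (red above, blue below; black lines divide the roles and the labels), as scaled on the left and with each library's trend on transcript length and GC content taken out on the right. The sterol enzymes in the upper rows are mostly red in WT 1, KO 1 and KO 2 in both panels, and the low WT 1 values of Srebf1, Scap and Fasn are paler on the right.

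Leaving out single libraries brought some members past the unadjusted threshold. Without WT 1, 3 members were higher at an unadjusted p under 0.05 and 0 lower, against 4.72% and 5.44% of all genes tested: Msmo1 (log2 fold change 0.53, adjusted p = 0.390 by edgeR), Acat2 (0.55, adjusted p = 0.463) and Fads2 (0.57, adjusted p = 0.471). Without KO 3, 2 members were higher and 0 lower, against 3.65% and 3.48%: Mvd (log2 fold change 0.52) and Fads1 (0.45), both with an adjusted p of 0.668 by edgeR. None passed after adjustment.

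No difference between the labels was detected in the regulators of the pathway, and 1 WT library was low in several. Srebf2 read 137.9, 253.9 and 206.6 CPM in WT and 212.7, 220.0 and 181.5 CPM in the libraries labelled KO, a log2 fold change of 0.04 (-0.48 to 0.56). Srebf1 read 37.3, 84.3 and 83.3 CPM in WT and 86.9, 78.9 and 72.4 CPM in the libraries labelled KO (0.22, -0.43 to 0.86). Scap read 39.0, 81.0 and 76.7 CPM against 79.5, 78.0 and 71.4 CPM (0.22, -0.37 to 0.80). In all 3 genes WT 1 was the lowest library, and for Srebf1 and Scap the other 5 lay between 71.4 and 86.9 CPM. Fasn, the fatty acid synthase, had the same shape, with 81.6, 212.1 and 199.9 CPM in WT and 175.8, 200.8 and 193.6 CPM in the libraries labelled KO. Without WT 1 the log2 fold changes were -0.16 for Srebf2, -0.07 for Srebf1, -0.04 for Scap and -0.11 for Fasn, each below 0 where it had been above. The median deviation of these 4 genes, picked after their values were seen, was -0.88 in WT 1 and -0.40 there with the length and GC trend taken out. Srebf1, Srebf2 and Scap had longest transcripts of 4299, 5077 and 4227 bases, and Fasn one of 10050 bases. In WT 1 the median deviation was -0.36 for genes with transcripts over 8000 bases and 0.25 for those up to 2000 bases. It was -0.13 for those over 4000 and up to 8000 bases. The 4 genes had a GC content of 57.9% to 59.1%, and genes over 55% had a median deviation of -0.23 in WT 1. What part length and GC content had in the low WT 1 values was not tested.

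The INSIG genes, which retain SCAP and are themselves tied to sterol supply, also overlapped. Insig1 read 58.9, 42.2 and 44.1 CPM in WT and 52.6, 42.7 and 34.4 CPM in the libraries labelled KO (log2 fold change -0.16, -0.65 to 0.32). Insig2 was among the most even members, at 39.3, 36.8 and 34.3 CPM in WT and 37.4, 35.3 and 32.5 CPM in the libraries labelled KO (-0.07, -0.43 to 0.29). Stard4, a carrier of sterols between membranes, averaged 33.3 ± 6.38 CPM in WT and 26.9 ± 2.14 CPM in the libraries labelled KO (SD, n = 3). Its log2 fold change of -0.31 had an interval of -0.74 to 0.12.

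Among the fatty acid genes Elovl6 was the only member whose groups did not overlap in CPM. Elovl6, which elongates palmitate to stearate, read 34.6, 31.6 and 27.2 CPM in WT and 19.3, 26.5 and 25.9 CPM in the libraries labelled KO. All 3 values labelled KO lay under all 3 WT values, with the gap between 26.5 and 27.2 CPM. The log2 fold change was -0.38 (-0.82 to 0.05) and did not pass the test (unadjusted p = 0.0791, adjusted p = 0.808 by edgeR), and the adjusted p stayed between 0.629 and 1.00 in every other fit. Over the members, 1 of 32 did not overlap downward and 0 upward in CPM, against 6.83% and 5.68% of all tested genes. In the deposited FPKM, a scale compared after the data had been seen, these were 1 (Elovl6) and 1 (Fads1), against 6.55% and 5.99%, so on neither scale was the share of members above the background.

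Scd1 owed its spread, and its place above Scd2 in mean FPKM, to 1 WT library. It read 163.1, 209.1 and 391.7 CPM in WT and 170.4, 215.7 and 238.7 CPM in the libraries labelled KO (log2 fold change -0.29, -0.98 to 0.40). WT 3 was far above the other 5, and without it the log2 fold change was 0.16. WT 3 was also the highest library for 7 of the 10 adipocyte markers, against 8.01% of all tested genes, among them Cidec at 24.9 CPM against 2.97 to 12.5 CPM elsewhere and Adipoq at 12.2 CPM against 2.61 to 6.35 CPM. The other 3 (Fabp4, Pparg and Lpl) were highest in KO 1, and the summed list was higher in KO 1 (1433 CPM) and KO 3 (1182 CPM) than in WT 3 (1162 CPM). The 10 markers summed to 742 to 1162 CPM in WT and 907 to 1433 CPM in the libraries labelled KO, none was at 0 in all libraries, 4 had log2 fold changes above 0, and 2 (Pparg and Lpl) were higher at an unadjusted p under 0.05 and 0 after adjustment. Their part in the Scd1 value was not tested. Scd2 stayed even at 213.3, 251.6 and 226.6 CPM in WT and 232.3, 242.1 and 236.7 CPM in the libraries labelled KO. Acly and Acaca, which supply acetyl-CoA and malonyl-CoA, ran from 162 to 202 and from 43.4 to 66.0 CPM, with log2 fold changes of -0.13 (-0.49 to 0.22) and -0.16 (-0.60 to 0.28).

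The 3 genes of polyunsaturated fatty acid synthesis all had log2 fold changes above 0, with a median of 0.32, without passing the test. The median was 0.09 without KO 2 and 0.45 without KO 3. Fads1 read 109.2, 103.6 and 108.4 CPM in WT and 146.0, 145.5 and 108.2 CPM in the libraries labelled KO. KO 1 and KO 2 were high and KO 3 lay among the WT values, so the groups overlapped in CPM (fold 1.24, 95% interval 0.948 to 1.63; unadjusted p = 0.102 by edgeR). In FPKM they were just apart, at 31.1, 29.7 and 31.1 in WT and 41.9, 41.9 and 31.2 in the libraries labelled KO. Fads2, the delta-6 desaturase, read 24.8, 17.0 and 15.7 CPM against 22.8, 31.9 and 17.6 CPM (log2 fold change 0.33, -0.27 to 0.93). Elovl5, the elongase of polyunsaturated chains, had a log2 fold change of 0.08 (-0.28 to 0.44).

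Ratios of related genes within a library, which cancel library scaling, did not separate the labels either. The Srebf2 to Srebf1 ratio of FPKM was 2.90, 2.36 and 1.95 in WT and 1.92, 2.19 and 1.97 in the libraries labelled KO (two-sided exact permutation test, p = 0.3). The Scd1 to Scd2 ratio was 0.862, 0.937 and 1.95 in WT and 0.827, 1.00 and 1.14 in the libraries labelled KO (exact p = 0.8). For Insig1 to Insig2 the means were 1.47 ± 0.199 and 1.37 ± 0.197 (SD, n = 3, exact p = 0.6), and for Fads1 to Fads2 they were 2.53 ± 0.558 and 2.49 ± 0.434 (SD, n = 3, exact p = 1.0). In all, 4 pairs were compared, every adjusted p was 1.0, and 3 against 3 libraries cannot give a p under 0.1.

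**Figure D4:**
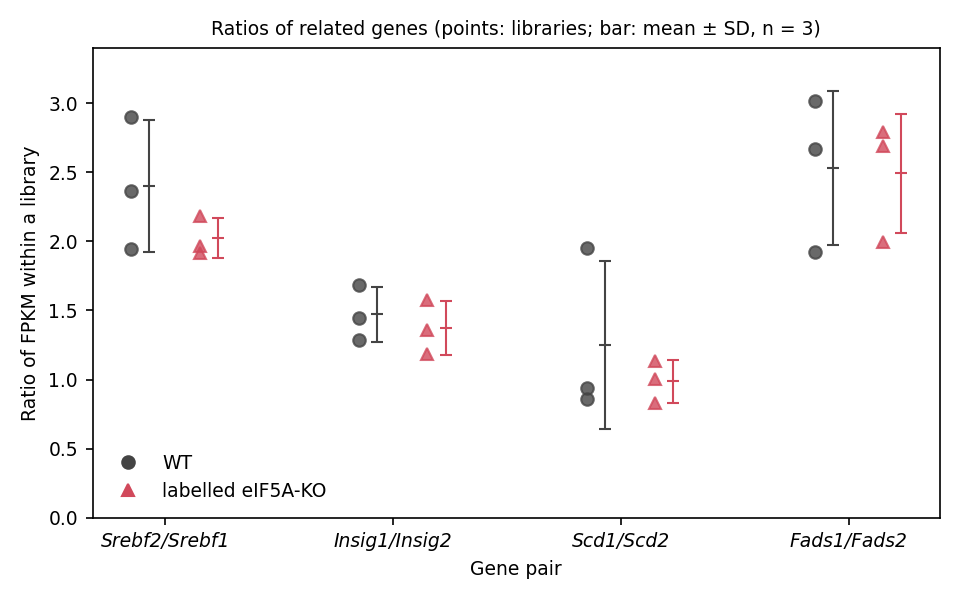
FPKM ratio of 4 gene pairs in each library (grey circles, WT; red triangles, labelled KO; bars, mean ± SD of 3 libraries) on a linear axis from 0. The 2 sets of points overlap in all 4 pairs, and the Scd1 to Scd2 ratio of 1.95 in WT 3 stands above the rest.

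A further 65 genes of these pathways were listed by function, and 59 of the 64 found in the table could be tested. At an adjusted p under 0.05, 0 passed, and at an unadjusted p under 0.05, 2 were higher and 2 lower with the KO label, counts close to the 2.74% and 4.02% of all tested genes. Elovl3, an elongase of saturated very long chains known from brown fat and skin, read 0.711, 1.01 and 1.95 CPM in WT and 0.0612, 0.0592 and 0.227 CPM in the libraries labelled KO. These were 11, 19 and 33 counts against 1, 1 and 4, so the log2 fold change of -3.30 (SE 0.67, unadjusted p = 0.000699, adjusted p = 0.321 by edgeR) rests on few reads, and its adjusted p was 0.0236 in DESeq2. Erlin1, which takes part in the turnover of sterol-regulated membrane proteins, read 51.3, 45.1 and 43.4 CPM against 31.3, 34.4 and 39.4 CPM (log2 fold change -0.41, SE 0.17, unadjusted p = 0.0385, adjusted p = 0.697 by edgeR). Elovl1, an elongase of very long saturated chains, read 90.8, 79.4 and 88.9 CPM against 129.6, 118.2 and 102.3 CPM (0.43, SE 0.17, unadjusted p = 0.0268, adjusted p = 0.640 by edgeR). Fads6, a desaturase-like gene, read 3.23, 5.62 and 3.54 CPM against 10.6, 7.87 and 6.12 CPM (0.98, SE 0.31, unadjusted p = 0.0110, adjusted p = 0.513 by edgeR). The groups did not overlap in these 4, nor in Mbtps1 (lower in CPM but not in FPKM) and in Me1, Cyb5r3 and Ppargc1a (higher). That made 5 higher and 3 lower of the 59, against 5.68% and 6.83% of all tested genes. The 10 genes of SREBP processing all had log2 fold changes below 0, with a median of -0.13, and only Erlin1 among them passed the unadjusted threshold. The 7 genes of sterol efflux and LXR targets had a median of 0.16, the 8 of sterol esters and endosomal export 0.12, and the 10 tested of fatty acid oxidation 0.06, with 0 passing in these lists.

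Lists for cell types and for dividing cells are given beside these values, with counts at an unadjusted p under 0.05 to be read against 2.74% of all tested genes higher and 4.02% lower. All 18 genes of dividing cells had log2 fold changes below 0, with a median of -0.59, and 11 were lower unadjusted and 0 after adjustment. Their summed level was 2111 to 2690 CPM in WT and 1384 to 1749 CPM in the libraries labelled KO. All 9 tested markers of differentiating myocytes also lay below 0, with a median of -0.52, 4 lower unadjusted and 0 after adjustment. The list of 12 summed to 303 to 579 CPM in WT and 218 to 328 CPM in the libraries labelled KO, with Tnnc2 at 0 throughout. The satellite cell and myoblast markers, described above, summed to 1289 to 2300 and 1027 to 1901 CPM. All 8 mural cell markers lay above 0 and 4 were higher unadjusted, with sums of 371 to 629 CPM in WT and 723 to 785 CPM in the libraries labelled KO. Among them the smooth muscle myosin Myh11 was the single gene of the table called higher after adjustment (log2 fold change 1.52, adjusted p = 0.0486 by edgeR), and its adjusted p ran from 3.65e-10 to 0.315 over 17 other fits, under 0.05 in 7. All 8 endothelial markers (1198 to 2575 against 2154 to 3182 CPM) and all 6 Schwann cell markers (131 to 197 against 202 to 251 CPM) lay above 0, with 1 higher unadjusted in each and 0 after adjustment. Of 10 macrophage markers (67.0 to 143 against 67.9 to 178 CPM) 8 lay above 0 and 1 was higher unadjusted, and of 10 fibroblast markers (2938 to 3946 against 3027 to 3625 CPM) 4 lay above 0 and 1 was higher unadjusted. The summed level of the 33 lipid genes was 2064 to 2270 CPM in WT and 2040 to 2322 CPM in the libraries labelled KO. What part cell composition had in the members' values was not tested.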

How the data were processed

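Total RNA of 6 libraries (3 WT, 3 labelled eIF5A knockout, day 2) was sequenced by the authors from NEBNext Ultra libraries. Per the study's methods and the submitters' processing notes, reads were mapped with HISAT to mm10; the counting rules, strand use and annotation release were not given in the sources used here. The deposited counts are raw reads per gene. The deposited FPKM values, made by the authors, equal counts over the gene length and a scaled library size. Genes were tested with edgeR 4.0.16 (filterByExpr, TMM, quasi-likelihood F test, Benjamini-Hochberg over all 14679 tested genes) in R 4.3.3. DESeq2 1.42.0, limma 3.58.1 (voom, and log2(FPKM + 1) or log2(FPKM + 0.1)), other scalings and filters, the replicate number as a block and each library left out were alternatives. The fits were tested on simulated data.

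The members and the lists were chosen with earlier results of these data known. Values in every library were given for members at an unadjusted p under 0.05 or with groups that did not overlap, for Srebf1, Srebf2, Scap, Insig1 and Insig2, for the member with the highest mean FPKM in each role, and for other pathway genes at an unadjusted p under 0.05. Further genes described by library (Mvk, Msmo1, Hmgcs1, Fasn, Scd2, Fads2) and the markers named were picked after their values were seen. Coordinates of 28 of the 33 members matched GENCODE M21, promoters came from RefSeq GRCm38.p6, and copies were aligned stretches of at least 200 bases and 90% identity.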

Additional observations from a re-analysis of the deposited data

How the results depend on the processing

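With 3 libraries a group, changes inside the intervals given above could not be seen. No member passed an adjusted p under 0.05 in any of the 17 other fits (lowest 0.39), and of the member values in them 501 kept their direction and 43 did not. Counts over all genes moved most, and where no cause is named it was not tested. Genes higher and lower at an adjusted p under 0.05 (1 and 2 as reported) were 0 and 0 with DESeq2's size factors, with at least 10 counts in every library, with limma-voom and with log2(FPKM + 1) or log2(FPKM + 0.1). They were 19 and 73 in DESeq2, 65 and 184 with no filter, and 2 and 7 with the length and GC trend taken out (added after the data had been seen). With no filter, 677 were higher and 1026 lower at an unadjusted p. With each replicate left out in turn they ran from 0 to 8 and 0 to 48 (8 and 48 without WT 1), and unadjusted from 185 (without KO 1) to 711 (without WT 1) higher. Members higher at an unadjusted p ran from 0 to 3. Other pathway genes higher ran from 0 (without KO 1) to 5 (without KO 3) and lower from 1 to 4 (without WT 2). Among other pathway genes 1 was lower at an adjusted p with no filter and 1 in DESeq2, 6 were higher unadjusted with the trend taken out, and 1 was lower unadjusted with at least 10 counts in every library. The same replicate numbers did not pair the samples: correlations of same-numbered deviations were 0.08, -0.16 and 0.11. With the replicate block 7 genes were higher and 17 lower at an adjusted p, and 1 other pathway gene was higher and 1 lower unadjusted.

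Log2 fold changes that turned with the trend taken out were those of Pmvk (-0.12), Cyp51 (0.026), Srebf2 (-0.048) and Eif5a (-0.11). Cyp51 was also above 0 at 0.000135 in limma-voom, 0.0014 with log2(FPKM + 1) and 0.0038 with log2(FPKM + 0.1). Tm7sf2 was above 0 at 0.000375 with DESeq2's size factors, 0.0054 with the 10 most abundant genes and mitochondrial transcripts left out of the scaling, 0.010 with no filter and 0.000414 in DESeq2. With each replicate left out in turn, the log2 fold changes that crossed 0 ran over Hmgcs1 -0.13 to 0.21, Pmvk -0.20 to 0.37, Idi1 -0.48 to 0.41, Acat2 -0.040 to 0.55, Fdft1 -0.053 to 0.38, Sqle -0.051 to 0.23, Lss -0.030 to 0.49, Cyp51 -0.26 to 0.34, Tm7sf2 -0.21 to 0.10, Msmo1 -0.12 to 0.53, Nsdhl -0.016 to 0.28, Hsd17b7 -0.036 to 0.34, Ebp -0.0072 to 0.32, Sc5d -0.11 to 0.35, Srebf1 -0.070 to 0.40, Srebf2 -0.16 to 0.25, Scap -0.040 to 0.40, Insig1 -0.32 to 0.01, Fasn -0.11 to 0.43, Scd1 -0.52 to 0.16, Scd2 -0.0045 to 0.11 and Eif5a -0.13 to 0.23.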
